A study of Mus musculus with 20 samples.

Results

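The MHC class II antigen presentation genes were described in the mouse diaphragm after injection of asbestos or carbon nanotubes into the pleural cavity. The genes were chosen by name: the classical chains H2-Aa, H2-Ab1 and H2-Eb1, the peptide editor chains H2-DMa, H2-DMb1 and H2-DMb2, the modulator chains H2-Oa and H2-Ob, the invariant chain Cd74, and the transcriptional coactivator Ciita. These are 10 of the 34797 gene names on the array, read by 13 of its 55681 probes. RNA came from female C57Bl/6 mice, injected when 8 weeks old and examined 12 weeks later, with 4 mice in each of 5 groups and 1 single-colour Agilent array per mouse. SFA and LFA are short and long amosite asbestos, at 25 µg per mouse, and NTS and NTL are short and long carbon nanotubes, at 5 µg per mouse. Both amosite samples came from 1 South African batch, and SFA was made from it by ball milling. Control mice received the vehicle alone, and all 5 groups received 100 µL of saline with 0.5% BSA. The asbestos and nanotube doses differed, so a difference between LFA and NTL cannot be told apart from a difference in dose.

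MHC class II molecules are pairs of an alpha and a beta chain that display peptides, cut in endosomes, to CD4 T cells. They are made chiefly by B cells, dendritic cells and macrophages, and interferon gamma turns them on in other cells. The invariant chain, CD74, occupies the groove of new molecules, the DM pair then exchanges its remnant for peptide, and the DO pair holds DM back, mostly in B cells. CIITA is recruited by factors bound to the X and Y boxes in class II promoters and is needed for transcription of the classical chains. Strains of the b haplotype, such as C57BL/6, lack a functional E alpha chain, and the array's probe for it, H2-Ea-ps, was well above background on 0 of the 20 arrays.

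The X and Y boxes are shown because CIITA is recruited through them. RefSeq promoter windows (GRCm38.p6, 250 bases before to 50 after the start) were held for 7 of the 10 genes, in 8 windows, and none was held for H2-Ab1, Cd74 or Ciita. The Y box, an inverted CCAAT searched as TGATTGG on both strands, was found for 6 of those 7 genes and in neither window of H2-DMa. It occurred in 7.82% of the 32851 windows of all genes. The letters AACNNNTGA, which cover part of the X box, were chosen after these windows had been read, so their occurrence is a description only. They were present for H2-DMb1, H2-DMb2, H2-Ob and H2-Eb1 and in 11.9% of all windows. Each stretch of 65 bases reads 5′ to 3′ in the direction of the gene, with both sets of letters in capitals.
H2-Eb1 (chr17:34305761-34305825, plus strand): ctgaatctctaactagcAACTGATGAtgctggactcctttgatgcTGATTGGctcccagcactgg
H2-DMb1 (chr17:34153083-34153147, plus strand): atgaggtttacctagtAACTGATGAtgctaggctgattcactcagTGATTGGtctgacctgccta
H2-DMb2 (chr17:34145112-34145176, plus strand): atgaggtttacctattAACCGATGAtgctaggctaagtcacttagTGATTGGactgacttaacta
H2-Ob (chr17:34238801-34238865, plus strand): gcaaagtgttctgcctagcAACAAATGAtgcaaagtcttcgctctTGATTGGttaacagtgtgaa
H2-Aa (chr17:34287854-34287918, minus strand): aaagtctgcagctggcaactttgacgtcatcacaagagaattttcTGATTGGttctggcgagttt
H2-Oa (chr17:34092289-34092353, plus strand): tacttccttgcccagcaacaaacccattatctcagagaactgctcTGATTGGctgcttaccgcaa

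The stretches of H2-DMb1 and H2-DMb2 were alike at 56 of 65 positions, whereas the other pairs of stretches shared between 16 and 29. The Y box began 63 bases before the start of H2-DMb1, 92 before that of H2-DMb2, 61 before that of H2-Eb1, 59 before that of H2-Ob, 50 before that of H2-Aa and 45 before that of H2-Oa. The X letters ended 17 to 20 bases before the Y box: 17 in H2-Ob, 19 in H2-Eb1 and 20 in both H2-DMb genes. Both sets of letters in this order within 40 bases stood in 26 of the 32851 windows, and 4 of these 26 belonged to the genes described here.

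Levels are log2 signals relative to the 75th percentile of the same array, so a difference of 1 is a 2-fold difference, and levels of different probes are not compared with each other. Between 53.0% and 68.1% of spots were well above background on each array, and 36930 probes passed the filter of being so on at least 4 of the 20 arrays. Of the 13 class II probes, 12 passed and 11 of these were well above background on all 20 arrays. A gene was called changed when limma, fitted on all 20 arrays, gave an adjusted p under 0.05 over all tested probes and a change of at least 2-fold. The signal at the 75th percentile ran from 292 to 991, with medians of 573 in control and 810 in NTL. The arrays lay on 3 slides: 3 of the 4 NTL arrays were on slide 3, which held no NTS array. The mean level of 10 liver transcripts ran from -0.88 to 8.55 over single arrays, and their part in the class II results was not tested. The 12 skeletal muscle markers were high on every array of this muscular tissue, with mean levels from 6.95 to 8.82, but lower in the groups given long fibres. In these whole-tissue samples, fewer cells of a type and less RNA per cell cannot be told apart.

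Few class II genes passed the test. Of the 10 genes, 1 was called in NTL against control, H2-DMb1 at 2.11-fold, beside 3.64% of all tested probes called higher there. None was called in LFA, where 2.21% of probes were called higher, and none in SFA or NTS, where 0% were. In NTL all 10 changes were above 0, with a median of 0.85 and an unadjusted limma p under 0.05 for 5. In LFA 9 were above 0, with a median of 0.46 and such a p for 1, H2-DMb1. Over all tested probes 34.8% of changes in NTL and 33.8% in LFA were above 0. Such a p together with a change above 0 was found for 7.71% of probes in NTL and 6.77% in LFA. Once slide was a block, 8 of the 10 NTL changes were above 0, H2-DMb2 and H2-Oa being the exceptions. In SFA and NTS the medians were 0.16 and -0.05.

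**Figure D1:**
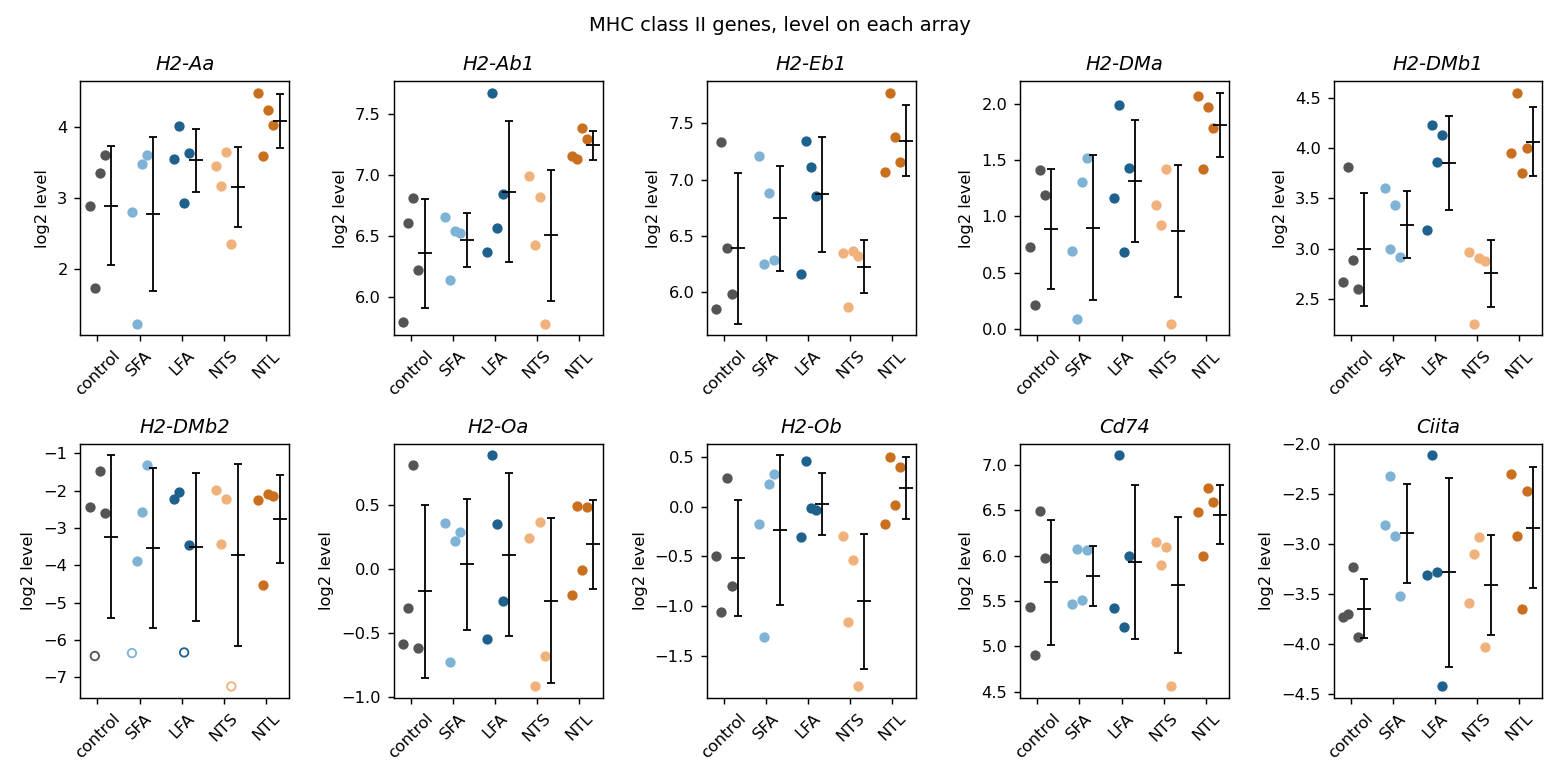
Log2 level of each class II gene (vertical axes, each with its own range) on the 20 arrays, by group; points are single mice, open points arrays on which the probe was not well above background, and bars the mean and SD of 4 mice. The 4 NTL values of H2-Ab1 lie between 7.13 and 7.38 and all control values at or below 6.81, whereas H2-DMb2 ranges from -7.24 to -1.32.

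H2-Aa codes for the alpha chain of the A molecule and is read by a probe on chromosome 17 at 34421285 to 34421344 (mm9). Its level was 2.88, 1.73, 3.35 and 3.60 in control, 3.54, 4.01, 2.93 and 3.63 in LFA, and 4.48, 3.59, 4.24 and 4.02 in NTL. In SFA it was 2.80, 1.23, 3.47 and 3.60, and in NTS 3.45, 3.17, 3.64 and 2.35. In NTL 3 of 4 arrays exceeded all control arrays, and 1 array in control and 1 in SFA stood more than 1 unit below the rest of their group. The NTL change was 1.19 ± 0.48 (SE), or 2.28-fold, with an unadjusted p of 0.0241 and a limma adjusted p of 0.142, so it was not called.

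H2-Ab1, the beta chain of the same molecule, had a pair of probes on chromosome 17 that overlapped by 51 bases (mm9 34406296 to 34406355 and 34406305 to 34406363). The brighter probe read 5.80, 6.61, 6.81 and 6.22 in control, 6.66, 6.14, 6.54 and 6.53 in SFA, and 6.37, 7.67, 6.57 and 6.85 in LFA. It read 6.99, 6.43, 6.82 and 5.78 in NTS and 7.15, 7.13, 7.38 and 7.30 in NTL. The NTL values were the most alike of the 5 groups, with an SD of 0.12 against 0.45 in control, and all 4 lay above all 4 control and all 4 NTS values. The change was 0.88 ± 0.31 (SE), or 1.84-fold, with a limma adjusted p of 0.0885. The other probe gave 0.93 with an adjusted p of 0.0793, and neither was called.

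H2-Eb1 codes for the beta chain of the E molecule, whose partner is missing in this strain. Its probe (chromosome 17, mm9 34453075 to 34453134) read 5.85, 7.33, 6.39 and 5.99 in control and 7.07, 7.77, 7.38 and 7.16 in NTL. It read 7.21, 6.25, 6.88 and 6.29 in SFA, 6.17, 7.34, 7.11 and 6.86 in LFA, and 6.35, 5.87, 6.36 and 6.32 in NTS. One control array, replicate 2, lay within the NTL range, and the NTL and NTS values did not overlap. The change in NTL was 0.96 ± 0.34 (SE) against control, with a limma adjusted p of 0.0872. H2-Eb2, a second E beta gene, was not called either, at 1.32 ± 0.48 (SE) in NTL (adjusted p = 0.0991) and 1.14 ± 0.48 in LFA (adjusted p = 0.161).

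H2-DMb1, a beta chain of the peptide editor, carried the only call against control. Its probe (chromosome 17, mm9 34297109 to 34297168) read 2.67, 3.82, 2.89 and 2.59 in control, 3.61, 3.0, 3.44 and 2.92 in SFA, and 3.18, 4.23, 3.87 and 4.14 in LFA. It read 2.97, 2.25, 2.91 and 2.88 in NTS and 3.96, 4.56, 3.76 and 4.01 in NTL. In NTL and in LFA 3 of 4 arrays exceeded every control array, and control replicate 2 was the array that overlapped with them. H2-DMb1 rose by 1.08 ± 0.31 (SE), or 2.11-fold, in NTL (limma adjusted p = 0.0403, 95% interval 0.43 to 1.73). In LFA the change was 0.86 ± 0.31, or 1.82-fold (adjusted p = 0.108). The group means ran from 2.75 in NTS and 2.99 in control through 3.24 in SFA and 3.85 in LFA to 4.07 in NTL. LFA and NTL, next to each other in this order, differed by -0.21 (95% interval -0.87 to 0.44), and SFA and control by 0.25 (-0.40 to 0.90). Across the slides the NTL difference from control was 0.71 on slide 2 (1 array against 2) and 1.22 on slide 3 (3 arrays against 1). With slide as a block it was 1.05 and no longer called (adjusted p = 0.107), and leaving out any 1 of the NTL arrays, control replicate 1, 3 or 4, or SFA replicate 3 also ended the call. Without control replicate 2, H2-DMb1 was called in LFA as well, and H2-Eb1 joined it in NTL.

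H2-DMa, the alpha chain of the editor, was read by a probe on chromosome 17 (mm9 34274300 to 34274863). It stood at 0.73, 0.21, 1.41 and 1.19 in control, 0.69, 0.08, 1.30 and 1.52 in SFA, and 1.16, 1.99, 0.69 and 1.43 in LFA. It stood at 1.10, 0.92, 1.42 and 0.04 in NTS and 2.07, 1.42, 1.98 and 1.79 in NTL. All 4 NTL values lay above all control values, the lowest of them only just, and the change of 0.93 ± 0.38 (SE), or 1.90-fold, was not called (limma adjusted p = 0.140).

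H2-DMb2, a close copy of H2-DMb1, passed the filter less clearly than the others: its probe (chromosome 17, mm9 34284764 to 34284823) was not well above background on 4 arrays. These were 1 each in control, SFA, LFA and NTS, with values of -6.43, -6.35, -6.33 and -7.24, and there the value is only a bound. The other values ran from -4.53 to -1.32. With this spread the 95% interval of the NTL change reached from -2.29 to 3.25, so a change of several fold in either direction was not detectable. Its NTL change of 0.48 was -0.58 without control replicate 2. Whether the probes of H2-DMb1 and H2-DMb2 share signal was not tested.

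H2-Oa and H2-Ob code for the alpha and beta chain of DO, which restrains DM. H2-Oa (chromosome 17, mm9 34232033 to 34232092) read -0.58, -0.31, 0.82 and -0.62 in control and -0.20, 0.50, 0.00 and 0.49 in NTL, groups that overlapped. It changed by 0.37 ± 0.40 (SE) in NTL and 0.29 ± 0.40 in LFA, with limma adjusted p-values of 0.635 and 0.683. The brighter H2-Ob probe (mm9 34380481 to 34380849) read -0.50, -1.06, 0.28 and -0.80 in control, -0.18, -1.32, 0.23 and 0.32 in SFA, and -0.31, 0.46, -0.01 and -0.03 in LFA. It read -0.30, -1.17, -0.54 and -1.81 in NTS and -0.17, 0.50, 0.02 and 0.40 in NTL, so that all NTL values lay above all NTS values. The NTL change against control was 0.70 ± 0.39 by this probe and 1.08 ± 0.49 by a second one (mm9 34382790 to 34382849), with adjusted p-values of 0.292 and 0.188. A further H2-Ob probe was well above background on 1 array and was not tested.

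Cd74, the invariant chain, read 5.44, 4.90, 6.5 and 5.98 in control, 5.46, 6.08, 5.52 and 6.06 in SFA, and 5.42, 7.11, 5.22 and 5.99 in LFA. It read 6.15, 5.90, 6.10 and 4.56 in NTS and 6.48, 6.00, 6.75 and 6.59 in NTL. The LFA values had the widest spread of the 5 groups, with an SD of 0.85, and LFA replicate 2 was the highest of all 20 arrays. The change was 0.75 ± 0.43 (SE) in NTL and 0.23 ± 0.43 in LFA (limma adjusted p = 0.314 and 0.765). The LFA change was -0.16 without LFA replicate 2, -0.04 without control replicate 2 and -0.06 with array brightness as a covariate.

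Ciita, the coactivator, was read by a probe on chromosome 16 (mm9 10526568 to 10526627). Its level was -3.72, -3.70, -3.22 and -3.93 in control, -2.81, -2.32, -2.92 and -3.52 in SFA, and -3.31, -2.11, -3.28 and -4.42 in LFA. It was -3.59, -3.10, -2.92 and -4.02 in NTS and -2.30, -2.92, -3.65 and -2.47 in NTL. In SFA and in NTL 3 of 4 arrays stood above all control arrays, whereas LFA held both the highest and the lowest value of all. The changes of 0.75 ± 0.42 (SE) in SFA, 0.36 ± 0.42 in LFA, 0.23 ± 0.42 in NTS and 0.81 ± 0.42 in NTL were not called, with limma adjusted p-values of 0.252 and above. Without LFA replicate 2 the LFA change was -0.02. By the brightest probe of each gene, Ciita had the largest of the 10 SFA changes. The second H2-Ob probe gave 0.85 ± 0.49 in SFA and was not called either.

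The long fibres were then set against the short fibres of the same material, at the same dose. H2-DMb1 was 1.32 ± 0.31 (SE), or 2.49-fold, higher in NTL than in NTS (limma adjusted p = 0.0128), and H2-Eb1 was 1.12 ± 0.34, or 2.18-fold, higher (adjusted p = 0.0448). These were the 2 class II genes called, beside 4.92% of probes called higher in this comparison. All 10 changes were above 0, with a median of 0.94, and 5 had an unadjusted limma p under 0.05. Over all tested probes 36.0% of changes were above 0. Such a p was found for 25.0% of them in either direction, and with a change above 0 for 9.93%. H2-Ob stood at 1.14 ± 0.39, H2-DMa at 0.94 ± 0.38 and H2-Ab1 at 0.74 ± 0.31, none of them called. On slide 2, the only slide that held both groups (1 NTL and 2 NTS arrays), the difference was 1.35 for H2-DMb1 and 0.96 for H2-Eb1. With slide as a block neither was called, at 1.29 (adjusted p = 0.106) and 1.01 (adjusted p = 0.227). The class II median was then 0.41, and 8 of the 10 changes were above 0, with H2-DMb2 at -0.75 and H2-Oa at -0.13. Without NTS replicate 2 or without NTL replicate 2 the count was 0. It was 1, H2-DMb1, without any 1 of control replicate 3, SFA replicates 3 and 4, LFA replicates 3 and 4, NTS replicates 1 and 3, and NTL replicates 1, 3 and 4. Without SFA replicate 2, H2-Ob was called as well.

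Between LFA and SFA no class II gene was called, beside 1.03% of probes called higher. None had an unadjusted limma p under 0.05, beside 12.6% of all tested probes. The largest differences were 0.75 ± 0.48 (SE) for H2-Aa and 0.62 ± 0.31 for H2-DMb1, whose 95% interval ran from -0.04 to 1.27. The difference between the length effects of nanotubes and asbestos was above 0 for all 10 genes, with a median of 0.66. It was above 0 for 49.8% of all tested probes. None of the 10 genes passed the test of that difference (limma, 0% of probes called higher), and the lowest unadjusted p was 0.0715, for H2-Eb1. With slide as a block the median of that difference was -0.13. The length effect was therefore not shown to differ between the materials.

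LFA stood below NTL for all 10 genes, with differences from -0.76 to -0.08 and a median of -0.46. Over all tested probes 46.5% of differences were above 0. No gene was called, with 0% of probes called higher. None had an unadjusted limma p under 0.05, beside 1.54% of all tested probes. Under the slide block the median was -0.15 and 3 of the 10 differences were above 0. The intervals were wide: -1.57 to 0.46 for H2-Aa, -1.03 to 0.27 for H2-Ab1 and -1.43 to 0.39 for Cd74. Both groups were compared with the same 4 control arrays. The median over all tested probes was -0.28 in LFA and -0.25 in NTL, and with quantile normalization these medians were -0.08 and -0.09. Relative to that median all 10 genes lay higher in both groups, but H2-DMb2 in LFA by only 0.003, with an SE of 1.32. Under quantile normalization the median class II change was 0.62 in LFA and 1.10 in NTL, and H2-Ab1 and H2-Eb1 were called in NTL beside H2-DMb1.

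**Figure D2:**
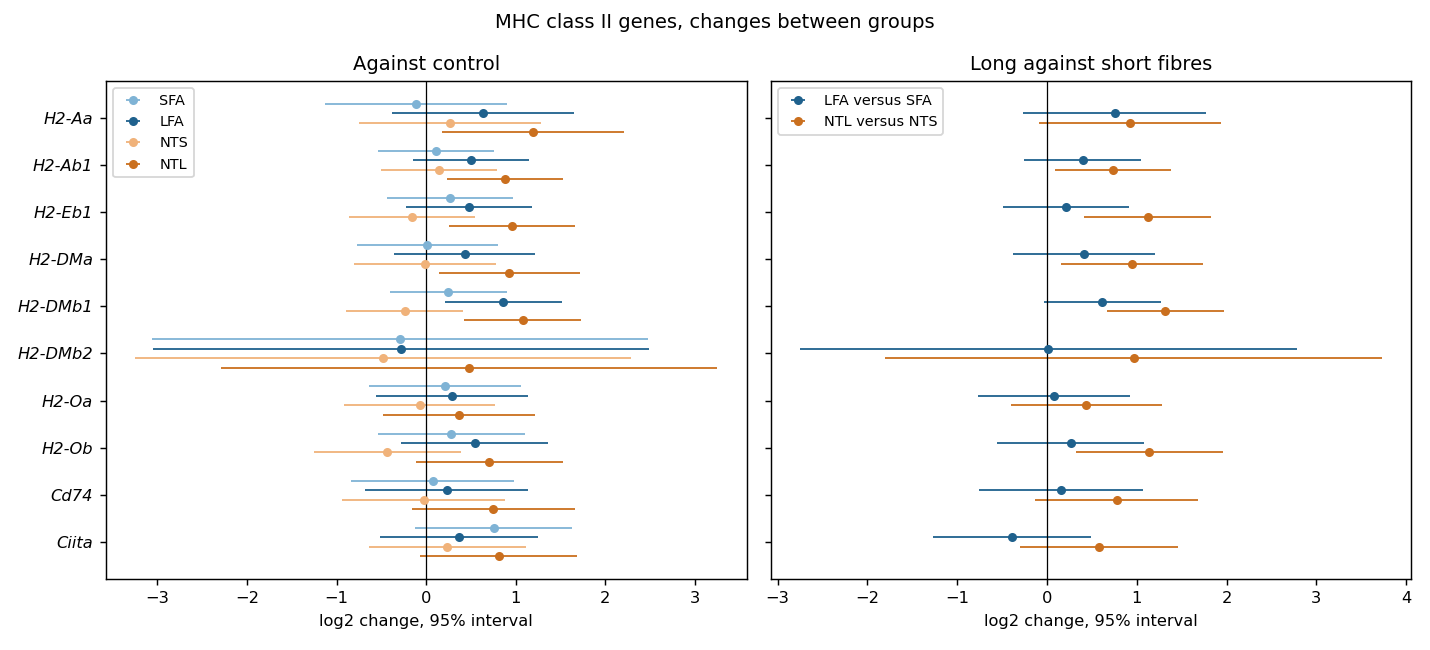
Log2 change of each class II gene (horizontal axes) with its 95% interval from the limma fit, against control at left (SFA, LFA, NTS, NTL) and long against short fibres at right. The NTL points lie between 0.37 and 1.19 and the SFA and NTS points on both sides of 0; H2-DMb2 has the widest intervals.

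The genes differed in how they varied from array to array. Over the 20 arrays, H2-Aa and H2-DMa had a Pearson r of 0.94, and H2-Eb1 and H2-DMb1 one of 0.93, while H2-Aa and H2-Eb1, of the same locus, had 0.22. After subtraction of the group means these values were 0.93, 0.92 and -0.22. H2-DMb2 ran against H2-Eb1, with r of -0.28 before and -0.54 after that subtraction. These values describe 20 arrays that share groups and slides, and no test was made of them.

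**Figure D3:**
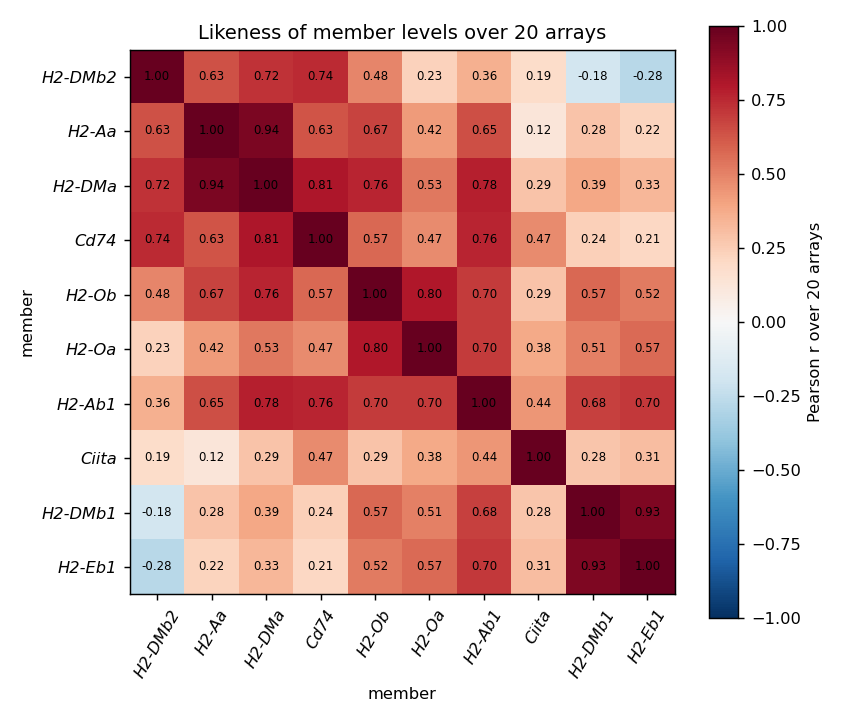
Pearson r between the levels of each pair of class II genes over the 20 arrays (both axes list the genes; colour and printed value give r). H2-DMb2, H2-Aa, H2-DMa and Cd74 have r from 0.63 to 0.94 with each other, and H2-DMb1 and H2-Eb1 have 0.93. H2-Ab1 is like genes of both sets, with 0.78 to H2-DMa, 0.76 to Cd74 and 0.70 to H2-Eb1.

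H2-DMb2, H2-Aa, H2-DMa and Cd74 also differed from H2-DMb1 and H2-Eb1 against a property of the arrays. For 1908 transcripts with 2 tested probes whose starts lay at least 1000 bases apart, the level of the probe nearer the 5′ end minus that of the other was averaged per array, without the class II genes. This 5′–3′ index was -1.18, -1.99, -1.34 and -1.07 in control, -2.20, -1.58, -1.87 and -1.18 in SFA, and -1.58, -1.43, -2.13 and -1.84 in LFA. It was -1.14, -0.98, -0.91 and -2.0 in NTS and -1.32, -2.12, -1.64 and -1.28 in NTL. A low index means that probes near the 5′ end read low beside probes of the same transcript near its 3′ end. The lowest array of each group was control replicate 2, SFA replicate 1, LFA replicate 3, NTS replicate 4 and NTL replicate 2.

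With the groups in the model, the level rose with the index for 4 of the 12 tested class II probes and fell for 3, beside 27.4% and 21.9% of all tested probes (limma adjusted p under 0.05). The slope was 4.33 ± 0.57 (SE) for H2-DMb2, 1.12 ± 0.27 for Cd74, 1.0 ± 0.36 for H2-Aa and 0.89 ± 0.25 for H2-DMa, per unit of the index. The probes of H2-DMb2, H2-Aa and H2-DMa begin at bases 223, 227 and 329 of their transcripts, nearest to the 5′ end among the tested class II probes. The slope was -0.73 ± 0.23 for H2-Eb1, -0.62 ± 0.22 for H2-DMb1 and -1.08 ± 0.35 for the H2-Ob probe that begins at base 2606, whereas the H2-Ob probe at base 778 had 0.41 ± 0.33. Cd74 goes against this order, since its probe begins at base 1183. Nor did other probes follow it: Ciita, at base 4269, had 0.45 ± 0.35. The H2-Ab1 probes, at bases 1125 and 1134, had 0.24 ± 0.26 and 0.24 ± 0.27, although the H2-Eb1 probe begins at base 1124. The limma adjusted p-values of these Ciita and H2-Ab1 slopes were 0.303 and above.

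With the index as a covariate, a setting added after the data had been seen, the class II genes called in NTL were H2-Aa at 1.39 (adjusted p = 0.0281) and H2-DMa at 1.10 (adjusted p = 0.0158). H2-DMb1 then stood at 0.96 with an adjusted p of 0.0176, under the 2-fold limit. In NTL against NTS 6 genes were called with it: H2-Aa, H2-DMa, H2-DMb1, H2-DMb2, H2-Ob and Cd74. That of H2-DMb2 includes an NTS array on which its value is only a bound. More probes in all were called in that fit, 5.06% higher in NTL against control and 7.19% higher in NTL against NTS. Without the lowest-index array of each group, H2-DMb1 and H2-Eb1 were called in both of these comparisons.

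**Figure D4:**
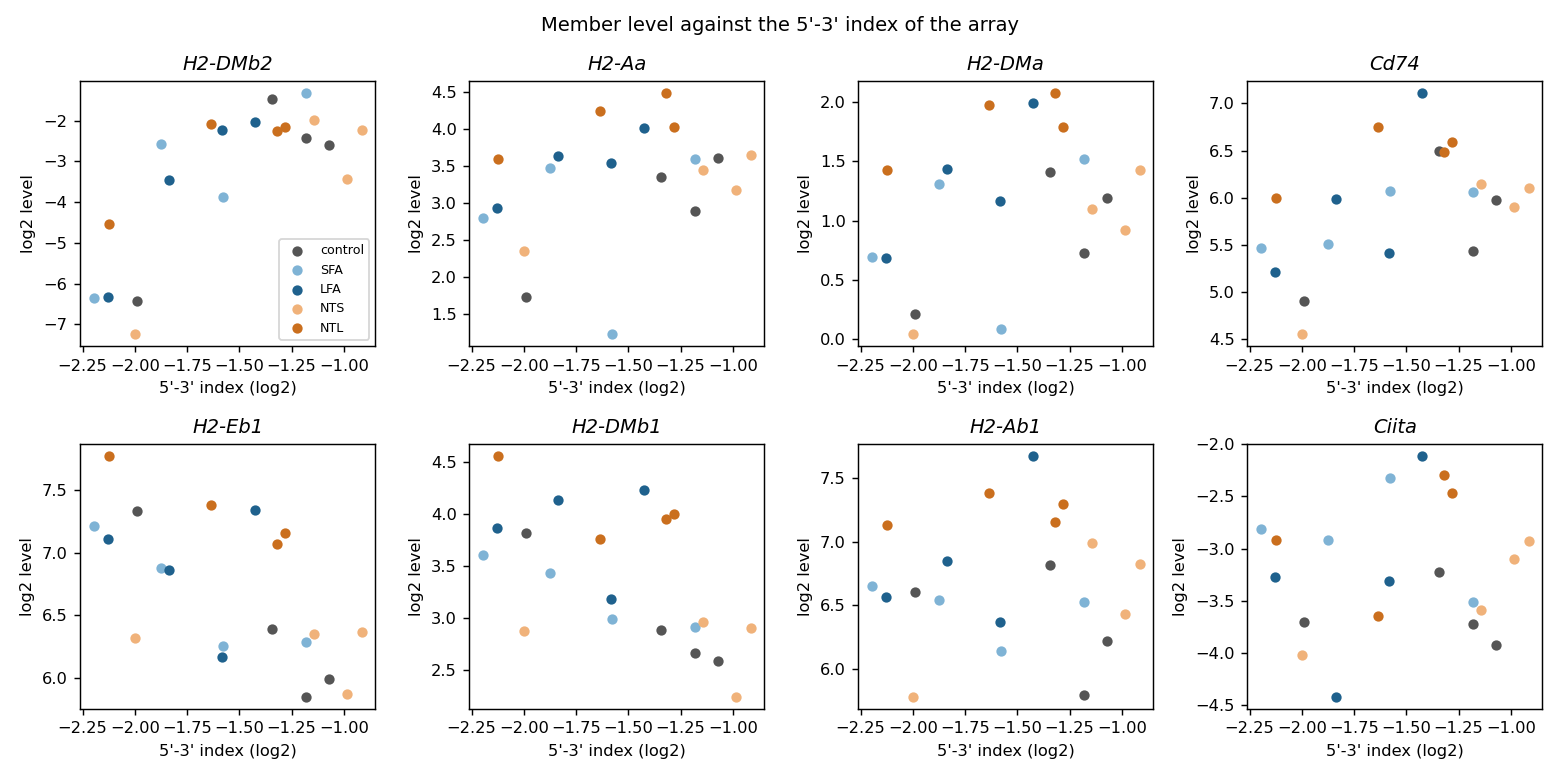
Log2 level of 8 class II genes (vertical axes) against the 5′–3′ index of the array (horizontal axes, log2); each point is 1 of the 20 arrays, coloured by group. H2-DMb2, H2-Aa, H2-DMa and Cd74 rise with the index, with slopes of 4.33, 1.0, 0.89 and 1.12, and H2-Eb1 and H2-DMb1 fall, with slopes of -0.73 and -0.62. The H2-DMb2 points include arrays on which its probe was not well above background.

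Several partners that prepare peptide for class II rose with both long fibres. Of 24 processing and loading partners tested, 4 were called higher in LFA and in NTL alike, beside 2.21% and 3.64% of all probes, and none lower. Ctss, the protease that trims the invariant chain, read 2.98 to 4.40 in control, 5.14 to 6.25 in LFA and 6.04 to 6.67 in NTL. It rose by 2.15 ± 0.36 (SE) in LFA and 2.79 ± 0.36 in NTL (limma adjusted p = 0.00377 and 0.000201). Lgmn, an asparagine endopeptidase, rose by 1.17 and 1.48, Ctsz, a carboxypeptidase, by 1.04 and 1.24, and Ifi30, the lysosomal thiol reductase, by 1.01 and 1.30. None of the 24 was called in SFA or NTS, and in NTL against NTS Ctss, Lgmn and Ifi30 were, beside 4.92% of all probes. These calls held with slide as a block, except that of Ctsz in LFA (0.96, adjusted p = 0.0557). The median change of the list was 0.14 in LFA and 0.22 in NTL, so most partners, among them the adaptor subunit Ap1m1 (-0.40 and -0.47) and cathepsin D, Ctsd (-0.21 and -0.09), did not follow these 4.

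Of the 25 genes tested for transcription of class II, 3 were called higher in LFA and 4 in NTL, beside 2.21% and 3.64% of all probes. The RFX subunits that bind the X box were not called: Rfxank changed by -0.49 and -0.62, Rfxap by -0.24 and -0.42, and the dim Rfx5, not well above background on any control array, had limma adjusted p-values of 0.171 and 0.297. Ifng, the inducing cytokine, changed by 0.99 and 0.61, and Irf1, the factor that drives the inducible Ciita promoter, by 0.36 and 0.32, neither of them called. The called genes were Prdm1, a repressor of Ciita (1.45 and 1.94), Irf4 (1.39 and 1.65), Socs1, which restrains interferon signalling (1.11 and 1.22), and, in NTL, Irf8 (0.90 in LFA, limma adjusted p = 0.0687, and 1.07 in NTL, adjusted p = 0.0254). Irf4 with slide as a block was the 1 gene called in LFA, where Socs1 had an adjusted p of 0.0576 and Prdm1 one of 0.0503, and in NTL Irf8 lost its call (adjusted p = 0.104).

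Of 7 genes for turnover and surface regulation, 2 were called higher in LFA and 3 in NTL, beside 2.21% and 3.64% of all probes. Il10 was not well above background on any control array. It exceeded control at least 2.25-fold in LFA, and in NTL at least 2.81-fold (limma adjusted p = 0.00556 and 0.000815). This bound sets the mean of the 4 exposed arrays against the lowest signal well above background on each control array. Il10ra, its receptor, rose by 1.59 and 1.93. Cd83, which stabilises class II at the surface, changed by 1.37 in LFA (adjusted p = 0.0577) and rose by 1.52 in NTL (adjusted p = 0.0262), a call lost with slide as a block (adjusted p = 0.0721). March1, the ligase that removes class II from the surface, was not called, at -1.13 and -1.01.

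Of 16 costimulation and T cell contact genes tested, 3 were called higher in LFA and 6 in NTL, beside 2.21% and 3.64% of all probes. Cd86, a ligand of CD28, rose by 1.54 ± 0.41 in LFA and 1.5 in NTL (limma adjusted p = 0.0490 and 0.0391). Cd80, the other ligand, stood at 1.02 in LFA (adjusted p = 0.0682) and rose by 1.12 in NTL (adjusted p = 0.0359), and Cd40 at 0.95 (adjusted p = 0.120) and 1.35 (adjusted p = 0.0254). Icos, a receptor on activated T cells, rose by 1.90 and 2.05, and Cd48 by 1.53 and 1.57. In NTL against NTS 8 of the 16 were called higher, beside 4.92% of all probes. Most of these calls were lost with slide as a block. In LFA Cd86, Icos and Cd48 then had limma adjusted p-values of 0.0925, 0.0724 and 0.0561, and Cd80 was called in their place (1.16, adjusted p = 0.0464). In NTL 1 call of 6 held, that of Icos at 2.02 (adjusted p = 0.0449), and in NTL against NTS 0 of 8 did. Of 7 other genes of the class II region, among them Tap1, Tap2, Psmb8 and Psmb9, none was called in any of these comparisons. No gene of these 5 pathway lists was called lower in LFA or NTL, beside 646 and 1167 of the 36930 tested probes.

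**Figure D5:**
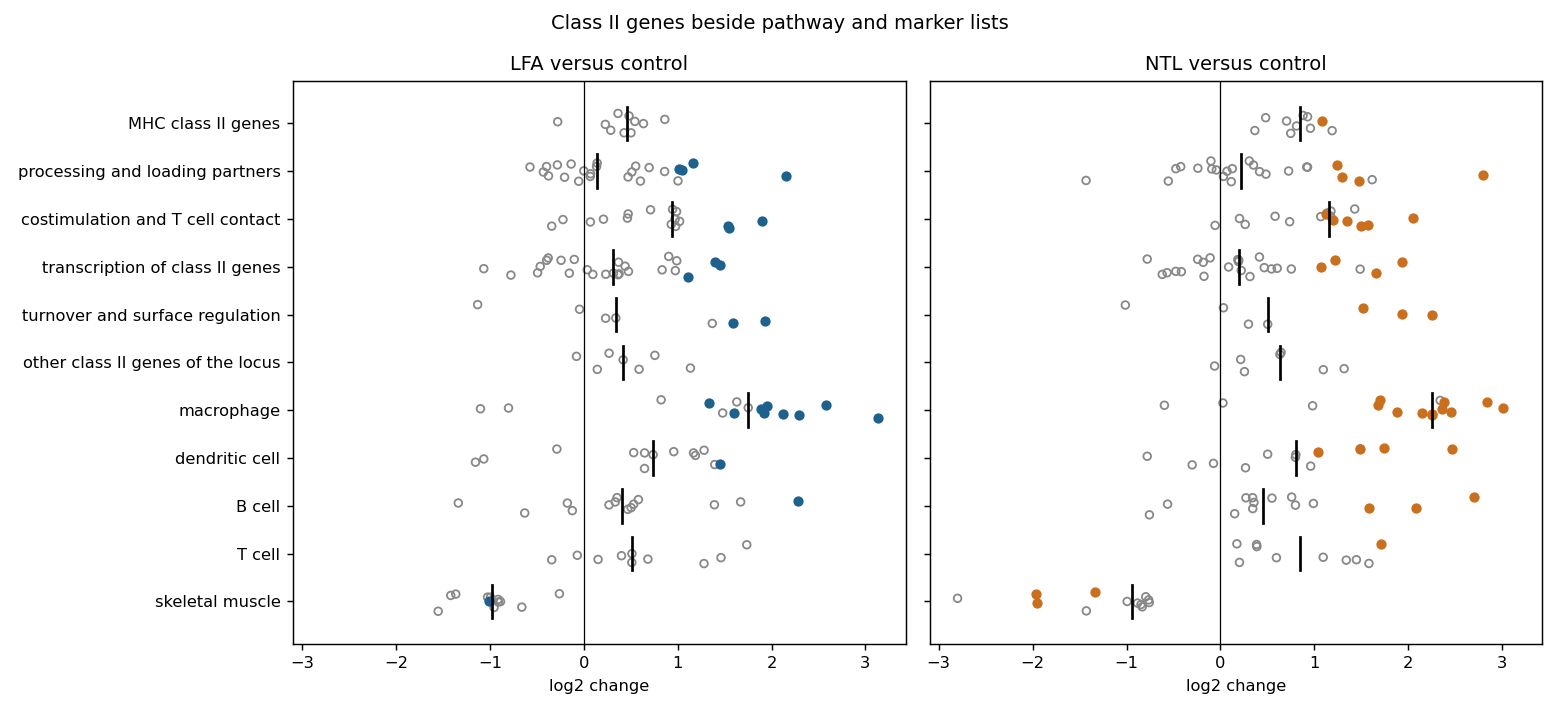
Log2 change (horizontal axes) of the 10 class II genes and of the genes of each pathway or marker list (rows) in LFA and in NTL against control; filled points are called genes, open points the others, and the vertical bar is the median of the row. The class II median is 0.46 in LFA and 0.85 in NTL, and the macrophage median 1.75 and 2.25.

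Markers of the cells that carry class II were read on the same arrays. Over all tested probes, 2.21% were called higher in LFA and 3.64% in NTL. Of 15 macrophage markers, 9 were called higher in LFA and 11 in NTL, with medians of 1.75 and 2.25; Cd68 rose by 1.95 and 2.39 and Msr1 by 3.13 and 3.01. The mean macrophage level ran from 1.13 to 1.33 in control, 2.21 to 3.26 in LFA and 3.02 to 3.16 in NTL, both above control without overlap. Of 14 B cell markers, 1 was called in LFA and 3 in NTL, with medians of 0.41 and 0.45, and the mean level ran from -0.59 to 0.69 in control, -0.20 to 1.09 in LFA and 0.20 to 1.10 in NTL. Ms4a1 was not called, and the called B cell genes were Cd72, Blnk and Pou2af1. Of 13 dendritic cell markers, 1 and 4 were called, with medians of 0.74 and 0.80. Changes above 0 were seen for 10 of the 13 in LFA and likewise in NTL. The lowest marker stood at -1.15 in LFA and -0.78 in NTL, whereas Itgax, the highest in NTL, rose by 2.47. Of 10 T cell markers, none was called in LFA and 1, Cd5, in NTL, with medians of 0.51 and 0.85. The macrophage calls with slide as a block were 9 and 10 in LFA and NTL, the dendritic cell calls 0 and 1 (Itgax, 2.19), the B cell calls 0 and 1 (Cd72, 2.59) and the T cell calls 0 and 0.

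Skeletal muscle and fibroblast markers moved as well. Of 8 mesothelial markers none was called in LFA or NTL, with medians of 0.44 and -0.40. In NTL against NTS 1 of them, Wt1, was called higher, but not with slide as a block. Their mean level ran from 2.48 to 3.31 in control, 2.22 to 3.53 in LFA and 2.27 to 2.64 in NTL, ranges that overlapped. The mean level of the 12 skeletal muscle markers ran from 8.22 to 8.50 in control, 7.03 to 7.65 in LFA and 6.95 to 7.23 in NTL, so that both long-fibre groups lay below control without overlap. All 12 changes were below 0 in LFA and in NTL, with medians of -0.98 and -0.94. Over all tested probes only 33.8% of changes in LFA and 34.8% in NTL were above 0. Of the 12 muscle markers, 1 was called lower in LFA, Acta1, and 3 in NTL, Myh1, Tnnt3 and Pvalb. Of the 36930 tested probes, 646 were called lower in LFA and 1167 in NTL. With slide as a block the NTL calls of the muscle markers held and that of Acta1 in LFA did not. Of 8 fibroblast and matrix markers, 1 was called higher in LFA, Col3a1, and 4 in NTL, Col1a1, Col1a2, Col3a1 and Lum. The medians were 0.90 and 1.40, and in NTL against NTS 6 were called higher. The shares of all tested probes called higher were 2.21% in LFA, 3.64% in NTL and 4.92% in NTL against NTS. The mean level of the fibroblast markers ran from 4.74 to 5.17 in control, 5.02 to 6.22 in LFA and 5.45 to 6.46 in NTL. The fibroblast calls with slide as a block were 0 in LFA, 2 in NTL and 1 in NTL against NTS. The part of any of these cells in the class II values was not tested.

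The genes most like class II over the arrays were ranked by Pearson r with the mean level of H2-Aa, H2-Ab1, H2-Eb1 and Cd74, over 20 arrays and 17570 other genes. This mean joins genes that did not all vary together. H2-Eb1 had r of 0.39 with the mean of H2-Aa, H2-Ab1 and Cd74, and -0.03 after subtraction of the group means. The first 10 genes in the ranking were Coro1a (0.93), Fkbp1b, Rinl, Prss16, Fcer1g, Pdk3, Pqlc3, Cmtm3, Mgat4a and Hcls1 (0.89). Coro1a, a coat protein of leukocytes, changed by 0.65 in LFA and 1.11 in NTL, and Fcer1g, the common gamma chain of Fc receptors, by 1.38 and 2.07. After subtraction of the group means Coro1a again stood first, at 0.93, followed by Selplg, Rinl, Hcls1, Fkbp1b, Kcnn4, Mgat4a, Gimap1, Rad9 and Tbxas1. Not all of these were called in NTL: Coro1a (1.11), Gimap1 (0.14) and Rad9 (-0.02) were not, and the calls of the others are not given here.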

How the data were processed

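Diaphragm RNA of 20 mice (a snap-frozen portion) was hybridised to single-colour Agilent arrays, 1 per mouse. Per the file headers and the labels, the authors' scanner files, made with Agilent Feature Extraction 10.7.3.1, give background-subtracted intensity values per spot. The log2 of this intensity minus each array's 75th percentile was used, with outlier spots left out and spots of a probe averaged. The authors' own normalization in GeneSpring is not described further in the sources used here. A second deposited table holds log2 values by group, with no value per mouse. Its group differences had a Pearson r of 1.00 with those computed here over 36930 probes, and its values were centred on each probe's median over arrays (slope -1.00). Column medians were 0.16 for control, 0.11 for SFA, -0.15 for LFA, 0.21 for NTS and -0.17 for NTL, so scale, direction and centring were settled.

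Differences between groups were tested with limma 3.58.1 in R 4.3.3 in 1 fit of 20 arrays with Benjamini-Hochberg adjustment over 36930 probes well above background on at least 4 arrays. A gene stood by its brightest tested probe. A call required an adjusted p under 0.05 and at least 2-fold. The fit was tested on simulated data. Arrays have no counts, so their number, 4 mice a group, limits the precision, and p-values measure the spread between these mice. The class II genes and all pathway and marker lists were chosen with earlier results of these data known. Every class II gene is named, and from each pathway list the called genes with the largest change (at most 5) and preset genes close to class II. Alternatives were quantile normalization, normexp with offset 50, other filters, averaged probes, slide, scan day or replicate number as a block, array brightness as a covariate, only the groups compared, the methods' test with unequal variances, and leaving out each array. The 5′–3′ index as a covariate and the removal of the lowest-index arrays were added after the data had been seen. Probe positions are those of mm9 in the scanner files. Promoters are those of RefSeq on GRCm38.p6. The values of some list genes are not reported here, although the list counts include them.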

Additional observations from a re-analysis of the deposited data

Results flagged for a closer look

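In 60 sets of 4 arrays, 1 for each tested class II probe and group, 5 held an array whose distance from the nearest of the others was large beside the range of the group, or 8.33%, and chance gives about 1 in 20. NTS replicate 2 read 5.87 for H2-Eb1, where the other NTS arrays read 6.32 to 6.36, and 2.25 for H2-DMb1, where they read 2.88 to 2.97. Both genes lose their call in NTL against NTS without this array. NTL replicate 2 read -4.53 for H2-DMb2, beside -2.25 to -2.09 in the other NTL arrays. NTS replicate 4 read 4.56 for Cd74, beside 5.90 to 6.15. These last arrays had the lowest 5′–3′ index of their groups, -2.12 and -2.0. SFA replicate 2 read -0.72 for H2-Oa, beside 0.22 to 0.37 in the other SFA arrays.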

How the results depend on the processing

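The count of class II genes called was 0 under every alternative in SFA, NTS, LFA against SFA, LFA against NTL and the difference of length effects. In LFA it was 1, H2-DMb1, in place of 0 with quantile normalization, with array brightness as a covariate and without the lowest-index array of each group, and 0 to 1 when single arrays were left out, 1 only without control replicate 2. In NTL against control it was 1, but 3 with quantile normalization, 2 with normexp, with the 5′–3′ index as a covariate and without the lowest-index array of each group, and 0 without a filter, with slide or scan day as a block and with only the groups compared. Leaving out single arrays gave 0 to 2: 0 without any 1 of the NTL arrays, without control replicate 1, 3 or 4 and without SFA replicate 3, and 2 without control replicate 2. In NTL against NTS it was 2, but 3 with quantile normalization and with probes averaged by gene, 1 without a filter, 0 with slide or scan day as a block, 6 with the index as a covariate, and 0 to 3 without single arrays. Deviations of same-numbered arrays from their group means had r from -0.68 to 0.69 over 40 pairs, 14 of them over 0.1. Differently numbered arrays were not compared with these, so whether the numbers pair the mice was not settled. With the replicate number as a block the count was 0 in NTL against control and 1, H2-DMb1, in NTL against NTS. The cause of these differences was not tested.

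The change of H2-DMb1 in NTL ran from 0.91 to 1.45 over 34 alternatives and stayed above 0 in all of them. H2-DMb2 (-1.16 to 1.32) and H2-Oa (-0.03 to 0.70) were below 0 in NTL with slide or scan day as a block, and H2-DMb2 also with normexp, with array brightness as a covariate and without control replicate 2. The other 8 genes stayed above 0 there. In LFA, Ciita (0.36) was -0.04 with normexp and -0.02 without LFA replicate 2, Cd74 (0.23) was below 0 in 3 of 34 alternatives, down to -0.16, H2-Aa (0.64) was -0.02 with array brightness as a covariate, and H2-DMb2 (-0.28) was above 0 in 4 of 33. The methods' test with unequal variances spans all 5 groups at once, so it does not test NTL against control alone. It passed 2654 of the 10961 probes that moved at least 2-fold in any group, among them H2-DMb1 (adjusted p = 0.0467). H2-Aa (adjusted p = 0.202) and the second H2-Ob probe (adjusted p = 0.239) were entered in this test and did not pass. The table of group values gives no test. Signal over background limits H2-DMb2.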
